A study of Mus musculus with 8 samples.

Results

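A set of 10 genes of the Wnt pathway was followed in whole fetal mouse lung after tracheal occlusion (TO): the ligands Wnt2, Wnt2b, Wnt5a, Wnt7b and Wnt11, the feedback targets Axin2, Lef1 and Nkd1, and the R-spondin receptors Lgr5 and Lgr6. They were found by gene symbol among the 55385 gene IDs counted, and all 10 were present and passed the filter on low counts. The samples were bulk lung tissue of C57BL/6 fetuses collected at E18.5, from 4 control lungs and 4 TO lungs. In the TO fetuses the trachea had been ligated at E16.5 together with 1 carotid artery and 1 jugular vein, and progesterone was given to the dam at E17.5. The sources used here do not state whether control fetuses had an operation, and they do not tie lungs to litters, so p-values measure the spread between these lungs. Libraries are named by group and number, control 1 to 4 and TO 1 to 4.

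Wnt ligands are secreted lipid-modified proteins that bind Frizzled receptors together with a co-receptor. In the canonical branch this binding keeps beta-catenin from being degraded, and beta-catenin then acts with factors of the TCF/LEF family at target genes. Axin2, Lef1 and Nkd1 are among the genes that this branch turns on in many tissues, and Axin2 and Nkd1 dampen the pathway in return. Lgr5 and Lgr6 bind R-spondins, secreted proteins that raise the response of a cell to Wnt. In the fetal lung Wnt2 and Wnt2b are made by the mesenchyme and are needed for the lung to be specified, Wnt7b is made by the epithelium, and Wnt5a, mostly of the mesenchyme, acts largely through branches that do not use beta-catenin.

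The sequences just upstream of the 3 feedback targets are shown because TCF/LEF factors recognise a short sequence with the core CTTTG, and these genes are the usual readout of that activity. Each window holds the 250 bases before a RefSeq transcription start on GRCm38.p6, written 5′ to 3′ on the strand of the gene, and capitals mark the core or, for the other strand, its reverse complement CAAAG. The Axin2 window is chr11:108920099-108920348 on the plus strand, and it overlaps no annotated exon. The Nkd1 window is chr8:88527383-88527632 on the plus strand, where it lies within an intron of longer annotated Nkd1 transcripts. The Lef1 window is chr3:131110073-131110322 on the plus strand, and it overlaps an exon of the opposite-strand gene Gm43352.
Axin2: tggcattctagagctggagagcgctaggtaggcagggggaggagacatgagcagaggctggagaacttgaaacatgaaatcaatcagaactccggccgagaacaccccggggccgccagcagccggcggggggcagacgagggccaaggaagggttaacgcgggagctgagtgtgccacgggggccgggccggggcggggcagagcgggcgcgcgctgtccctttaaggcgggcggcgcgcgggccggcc
Nkd1: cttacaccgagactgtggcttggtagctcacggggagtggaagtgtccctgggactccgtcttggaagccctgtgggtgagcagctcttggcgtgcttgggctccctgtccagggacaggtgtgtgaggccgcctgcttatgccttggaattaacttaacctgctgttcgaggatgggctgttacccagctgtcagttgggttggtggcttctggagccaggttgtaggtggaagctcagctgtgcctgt
Lef1: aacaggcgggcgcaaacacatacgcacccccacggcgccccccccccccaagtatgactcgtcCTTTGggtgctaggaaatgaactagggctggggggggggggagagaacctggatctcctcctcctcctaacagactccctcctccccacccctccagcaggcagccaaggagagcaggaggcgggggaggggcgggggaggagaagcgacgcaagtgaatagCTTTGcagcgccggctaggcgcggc
Lef1 has 4 RefSeq starts with a window, which held the core 1, 2, 1 and 3 times, and the one shown, picked after the matches were seen, is the nearest to the annotated start of the gene. The printed Lef1 window held the core 2 times, and the Axin2 and Nkd1 windows did not hold these letters. Over all 32851 promoter windows of this length, 48.6% held the core, so a match is common. Of the 10 genes, 7 had a window, 11 windows in all. The core stood in 5 of these, the 4 of Lef1, 2 of which overlap, and 1 of 2 of Wnt11, so 2 of the 7 genes had it. A longer form, the core followed by 2 letters each A or T, was also looked for on both strands. It stood in none of the printed windows and in 2 of the 11, beside 14.8% of all windows. Wnt5a, Wnt7b and Lgr5 had no entry. These matches describe letters in the windows and were not tied to any measured binding.

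Read pairs counted on genes numbered 22822261 to 35002061 in 7 of the libraries and 270078 in TO 1. Levels are given as CPM, the count scaled to library size. In TO 1 the 6.87 CPM of Wnt2b stood for 2 read pairs, so values there carry far more counting error, and comparisons were run without it as well as with it. TO 1 also held the thymocyte markers Cd3e, Cd3d, Ptcra, Rag1, Cd8a and Lck at a summed 381 CPM, against 1.54 to 18.1 CPM in the other libraries. Stratified epithelium markers (Krt13, Krt4, Krt6a, Ivl and Sprr3) summed to 259 CPM in control 1, 247 in TO 4 and 61.8 in TO 1. Elsewhere they summed to 2.45 to 6.59 CPM, and their part in the values below was not tested. The distal epithelium markers (Sftpc, Sftpb, Abca3, Lamp3, Nkx2-1 and Etv5) summed to 6050 to 17320 CPM and the mesenchyme markers to 4788 to 8508 CPM over all 8 libraries, so markers of the labelled tissue were present in each. Tests used controls 1, 2 and 4 and TO 2, 3 and 4, called here the 6 specimens. Their specimen codes are the ones printed on the published plots of these lungs. Levels of a gene in bulk tissue cannot tell fewer cells of a type from less RNA per cell.

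The 10 genes spanned a wide range of levels. Per kilobase of exon, the mean over the 7 deep libraries was 35.1 ± 7.62 CPM per kb (SD, n = 7) for Nkd1, the highest, and 0.41 ± 0.22 for Lgr5, the lowest. Between them stood Wnt2 at 19.96 ± 8.55, Axin2 at 12.02 ± 1.72, Wnt5a at 11.5 ± 1.63, Wnt7b at 6.47 ± 2.44, Lgr6 at 4.35 ± 0.83, Wnt11 at 3.01 ± 0.51, Wnt2b at 2.03 ± 0.35 and Lef1 at 1.02 ± 0.13 CPM per kb. In this order the ranges of neighbouring genes over the 7 libraries overlapped, except that the lowest value of Wnt2b lay above the highest of Lef1. Compared within each of the 7 libraries, Nkd1 lay above Wnt2, Wnt5a above Wnt7b and Lgr6 above Wnt11 in every one. The same held for Wnt2b above Lef1 and for Lef1 above Lgr5. Among the genes tested Nkd1 stood at the 94.1th percentile of CPM and Lgr5 at the 41.6th percentile.

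**Figure D1:**
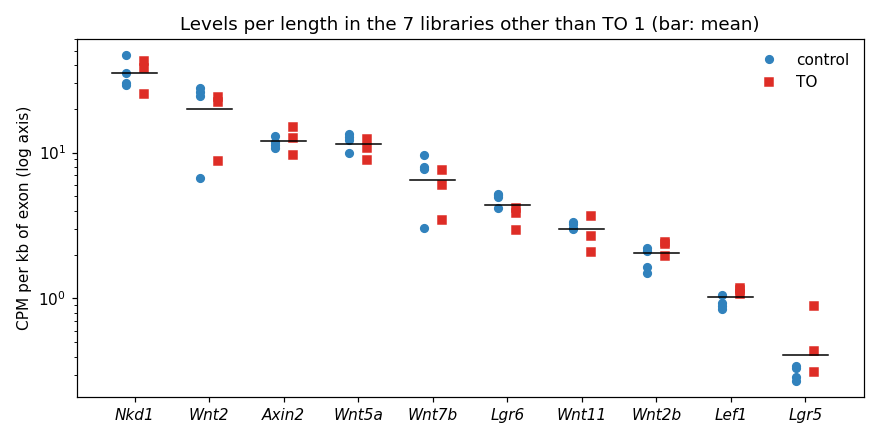
Level of each of the 10 genes in CPM per kilobase of exon on a log axis, for 4 control libraries (blue circles) and 3 TO libraries (red squares), with a bar at the mean of these 7. Nkd1 has the highest mean (35.1) and Lgr5 the lowest (0.41), and the low points of Wnt2 and Wnt7b are control 3 and TO 3.

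In the comparison of TO with control lungs no ligand, feedback target or receptor passed the test. None of the 10 genes was called at an adjusted p under 0.1 in the quasi-likelihood test of edgeR with Benjamini-Hochberg adjustment, and 0% of the 21859 genes tested were called, beside 1123 with an unadjusted p under 0.05. DESeq2 called 0.201% of all genes (44) and limma-voom called 0, and edgeR with number as a block called 1% in the 6 specimens, 0.0133% in all 8 libraries and 0.0136% over numbers 2 to 4. None of the 10 was among them. The adjusted p of the 10 genes was 0.907 to 0.955. Of them, 5 had a log2 fold change above 0 and 5 below, with a median of -0.02, beside 49.3% of all genes above 0. Of the members, 1, Lgr6, had an unadjusted p under 0.05 where 5.14% of all genes did. The intervals were wide, and that of Wnt2 at 95% ran from -1.21 to 0.22 on the log2 scale.

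**Figure D2:**
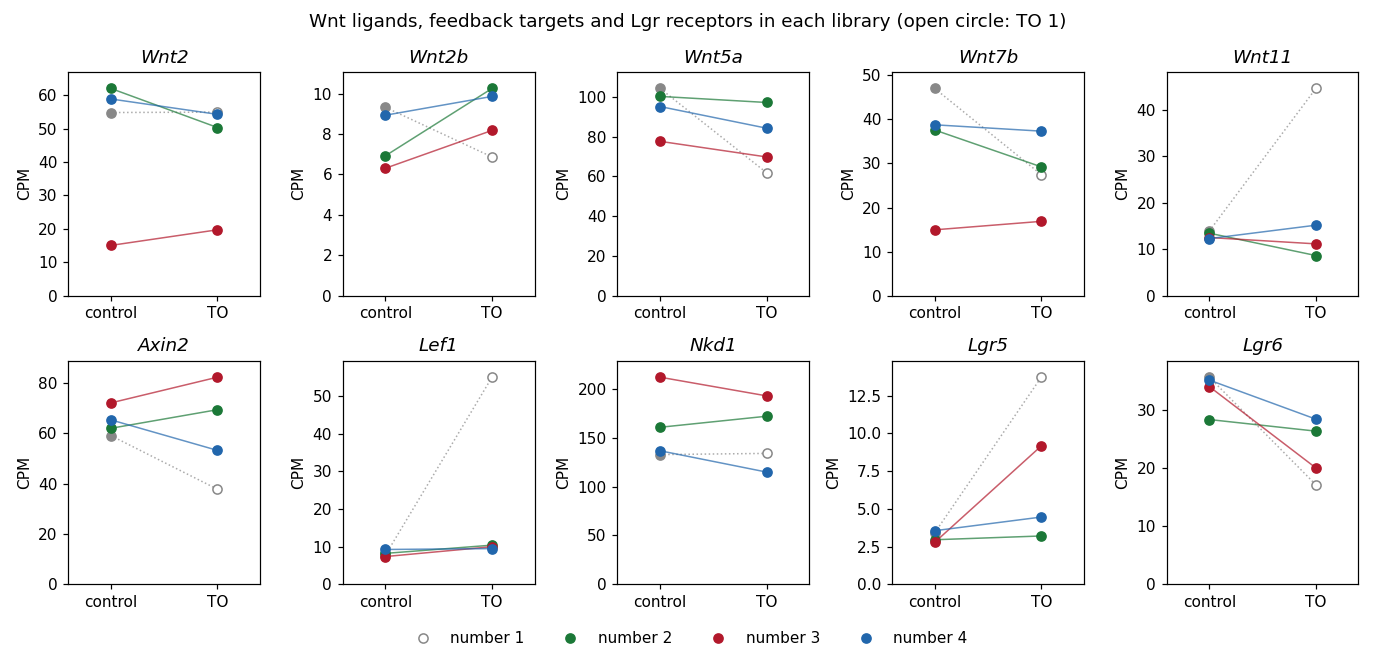
CPM of each gene in each library, control on the left and TO on the right of every panel, with libraries of the same number joined by a line and TO 1, the shallow library, as an open circle. Wnt2 and Wnt7b are low in control 3 and TO 3 alike, and Lef1, Wnt11 and Lgr5 are highest in TO 1.

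Wnt2, a mesenchymal ligand, separated by library number more than by group. Its normalised read count was 54.8 CPM in control 1, 62.0 in control 2, 15.0 in control 3 and 58.9 in control 4. In TO lungs it was 54.9 CPM in TO 1 (16 read pairs), 50.3 in TO 2, 19.7 in TO 3 and 54.3 in TO 4. Control 3 and TO 3, 1 lung of each group, were thus far below the other 6 libraries, which lay between 50.3 and 62.0 CPM. Among the 6 specimens tested, the mean was 58.6 ± 3.61 CPM in control lungs and 41.4 ± 18.9 in TO lungs (SD, n = 3 each), a log2 fold change of -0.49 (SE 0.32, edgeR unadjusted p = 0.151). These specimens hold TO 3 but not control 3. With numbers 2 to 4 in both groups and number as a block, chosen after the data were seen, the log2 fold change was -0.017 (SE 0.17), and without TO 3 it was -0.15. Without TO 4 it was -0.73 (SE 0.32, edgeR unadjusted p = 0.051), so the size depends on which lungs are in the comparison.

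Wnt7b, the ligand of the lung epithelium, had the same pattern. It was at 47.0 CPM in control 1, 37.6 in control 2, 14.9 in control 3 and 38.8 in control 4, and in TO lungs at 27.5 (8 read pairs), 29.2, 16.9 and 37.3 CPM in TO 1 to 4. Both libraries with number 3 were the lowest of their group. In the 6 specimens the log2 fold change was -0.56 (SE 0.26, edgeR unadjusted p = 0.061, adjusted p = 0.907). With numbers 2 to 4 and the block it was -0.084 (SE 0.17), and without TO 3 it was -0.29. Without TO 4 it was -0.83 (SE 0.24, edgeR unadjusted p = 0.0075, adjusted p = 0.239). In the 6 specimens DESeq2 gave an unadjusted p of 0.033 and limma-voom 0.043, where 6.11% and 6.23% of all genes were under 0.05 unadjusted. Neither tool called Wnt7b. Wnt2 and Wnt7b were lower in every TO specimen than in every control specimen among these 6, as were 5.82% of all genes, and with control 3 included both groups overlapped. Distal epithelium markers, summed over the list, were 10350 CPM in control 3 and 13530 in TO 3, within the range of the other libraries. Sftpc alone gave 7492 and 9671 CPM of these sums. Etv5 of the same list was lowest of the deep libraries in control 3 (212 CPM) and TO 3 (236 CPM). No other marker of the list had its lowest deep libraries there. The part of these cells in Wnt7b was not tested.

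The 6 proliferation markers (Mki67, Top2a, Ccnb1, Cdk1, Birc5 and Mcm6) moved with the number as well. Their summed level was 402 CPM in control 3 and 386 in TO 3, and 796 to 1513 CPM in the other 6 libraries. Their part in the low Wnt2 and Wnt7b was not tested. The numbers come from the sample titles, and the last digits of the specimen codes are shared by control 3 and TO 3, by control 2 and TO 2, and by controls 1 and 4 with TO 1 and 4.

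**Figure D3:**
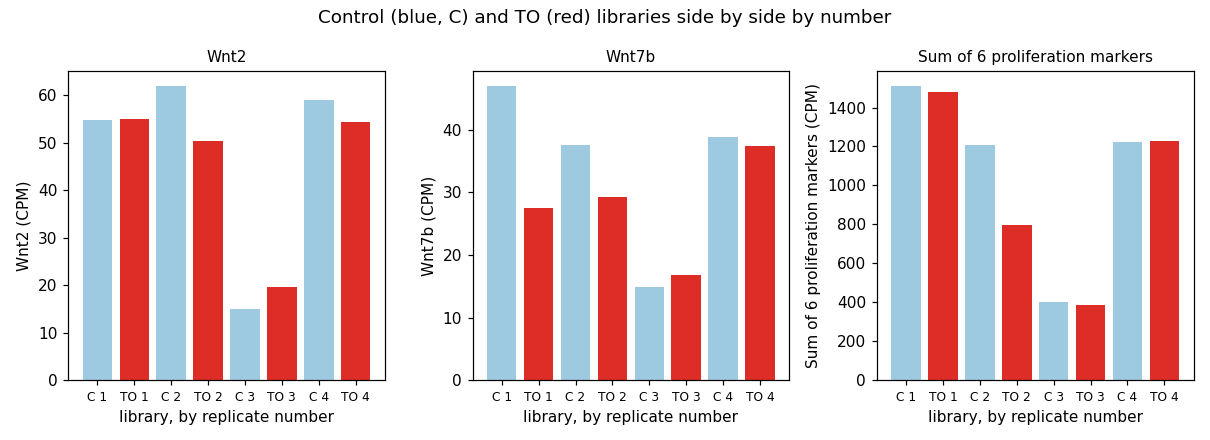
Wnt2, Wnt7b and the sum of 6 proliferation markers in CPM (bars from 0) in each library, ordered by number with control (C, blue) beside TO (red). The libraries numbered 3 are low in all 3 panels: 15.0 and 19.7 CPM for Wnt2, 14.9 and 16.9 for Wnt7b, 402 and 386 for the markers.

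The other ligands did not pass the test either. Wnt5a, which guides the shape of the distal lung, was at 104, 100, 77.6 and 95.1 CPM in control 1 to 4 and at 61.8 (18 read pairs), 97.1, 69.8 and 84.2 CPM in TO 1 to 4. Its lowest deep libraries were again control 3 and TO 3, and its log2 fold change was -0.25 (SE 0.14, edgeR unadjusted p = 0.094). Without TO 3 it was -0.13, and with number as a block in the 6 specimens it was -0.10. Wnt2b, which acts alongside Wnt2 in early lung formation, was at 9.32, 6.93, 6.31 and 8.94 CPM in control 1 to 4 and at 6.87 (2 read pairs), 10.3, 8.18 and 9.87 CPM in TO 1 to 4. The groups overlapped, and the log2 fold change was 0.17 (SE 0.22). Wnt11, a ligand mostly linked to signalling without beta-catenin, was at 13.9, 13.5, 12.52 and 12.3 CPM in control 1 to 4, and at 44.6 (13 read pairs), 8.64, 11.2 and 15.2 CPM in TO 1 to 4. Its log2 fold change was -0.18 (SE 0.23) in the 6 specimens, 0.15 (SE 0.37) in all 8 libraries and -0.00033 without TO 2. Its direction thus depends on which TO libraries are taken.

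Axin2, the negative regulator of beta-catenin most often used to read canonical signalling, was at 59.1, 62.0, 72.0 and 65.3 CPM in control 1 to 4. In TO 1 to 4 it was at 37.8 (11 read pairs), 69.3, 82.2 and 53.2 CPM. TO lungs thus held the highest and the lowest value, and number 3 was the highest of each group. The comparison gave a log2 fold change of 0.13 (SE 0.15) in the 6 specimens and -0.01 (SE 0.19) in all 8 libraries. Over the 7 deep libraries the genes whose log2 CPM ran most like that of Axin2 were Cfap206 (Pearson r = 0.993), Ncoa1 (r = 0.990) and Rab20 (r = 0.986), of 16912 genes ranked. The order describes these 7 libraries, which share their scaling, and no test was made on it.

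Nkd1, an inhibitor that binds Dishevelled, was the highest member per kilobase. It was at 133, 161, 212 and 137 CPM in control 1 to 4 and at 134 (39 read pairs), 172, 193 and 115 CPM in TO 1 to 4. The libraries numbered 3 were the highest of both groups, opposite to Wnt2 and Wnt7b. The log2 fold change was 0.15 (SE 0.18) in the 6 specimens, -0.0062 (SE 0.21) in the 7 deep libraries and -0.096 (SE 0.13) over numbers 2 to 4 with the block, so its sign depended on the libraries taken. Without TO 4, Axin2 and Nkd1 stood at 0.29 and 0.35 on the log2 scale with unadjusted p of 0.048 and 0.021 in edgeR. Wnt7b and Lgr6, both lower in TO, also had an unadjusted p under 0.05 there, as did 10.7% of all genes tested without TO 4 (0.692% were called), and none of these 4 was called.

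Lef1, the TCF/LEF factor that is itself a target, varied least among the members, with a highest deep library 1.41 times the lowest. It was at 7.79, 8.23, 7.39 and 9.26 CPM in control 1 to 4 and at 10.4, 10 and 9.50 CPM in TO 2, 3 and 4, so every deep TO library lay above every control. Of all genes, 2.26% were higher in TO without overlap of these 4 control and 3 TO libraries, and 5.06% in the 3 against 3 specimens. The log2 fold change was 0.24 (SE 0.19, edgeR adjusted p = 0.914), so the difference did not pass the test. In TO 1 Lef1 was at 54.9 CPM (16 read pairs), beside the thymocyte markers given above, whose part in this value was not tested. Tcf7, a related factor picked after its values were seen, was at 264 CPM in TO 1 and at 32.3 to 51.4 CPM elsewhere. Exons of Lef1 overlap Gm43352 on the other strand over 13.7% of their length, and STAR counts reads on both as ambiguous when strand is ignored.

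Lgr6 is a receptor for R-spondins that marks some smooth muscle and stem cells. It had the smallest unadjusted p of the members in edgeR in the 6 specimens, while Wnt7b had a smaller one with DESeq2 and limma-voom. Lgr6 was at 35.7, 28.4, 34.1 and 35.2 CPM in control 1 to 4 and at 17.2 (5 read pairs), 26.4, 20.1 and 28.5 CPM in TO 1 to 4. Each TO library was below the control with the same number, by only 0.10 in log2 CPM for number 2. The same order held for Wnt5a, while Lef1 and Lgr5 were above the control at every number. The share of all genes with such an order was not counted, and number 1 rests on few read pairs in TO 1. The groups met at control 2 and TO 4. The mean was 33.1 ± 4.08 CPM in the control and 25 ± 4.38 in the TO specimens (SD, n = 3 each), a fold of 0.76. The log2 fold change was -0.40 (SE 0.18, edgeR unadjusted p = 0.048, adjusted p = 0.907), and with all 8 libraries it was -0.46 (SE 0.18, unadjusted p = 0.025, adjusted p = 1). Without TO 3 it was -0.26 (edgeR unadjusted p = 0.145). With number as a block in the 6 specimens, a fit that rests on numbers 2 and 4, it was -0.20 (SE 0.19, edgeR unadjusted p = 0.301). Over numbers 2 to 4 with the block, which holds TO 3 and control 3, it was -0.39 (SE 0.18, edgeR unadjusted p = 0.055). The size thus rests in part on TO 3. Unadjusted p-values under 0.05 with a lower level in TO were found for 2.07% of all genes in the 6 specimens and 0.918% in all 8 libraries, and 1 of 10 members is to be read against that share. Smooth muscle markers summed to 602 to 1045 CPM in control and 564 to 1126 CPM in TO lungs, and their part in Lgr6 was not tested.

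Lgr5, the related receptor known from intestinal stem cells, was the lowest member per kilobase. It was at 3.42, 2.96, 2.79 and 3.56 CPM in control 1 to 4 and at 13.7 (4 read pairs), 3.21, 9.17 and 4.46 CPM in TO 1 to 4. TO 3 alone lay far above the other deep libraries. The log2 fold change was 0.75 (SE 0.40, edgeR unadjusted p = 0.09, adjusted p = 0.907), and without TO 3 it was 0.23, so the size rests on that library. With all 8 libraries it was 0.97 (SE 0.40, edgeR unadjusted p = 0.034), not called, in a fit that includes the 4 read pairs of TO 1. An unadjusted p under 0.05 with a higher level in TO was found there for 1.43% of all genes. TO 1 and TO 3 also held the highest summed thymocyte markers, 381 and 18.1 CPM, whose part in Lgr5 was not tested.

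**Figure D4:**
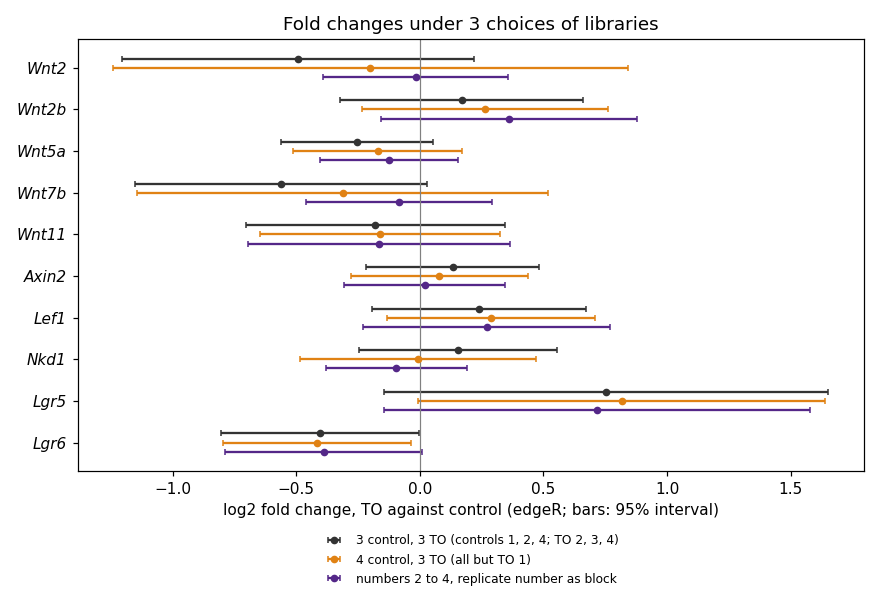
Log2 fold change of TO against control for each gene with its 95% interval, from edgeR in the 6 specimens (black), in the 7 deep libraries (orange) and over numbers 2 to 4 with number as a block (purple). Points for Wnt2 and Wnt7b move toward 0 from black (-0.49 and -0.56) to purple (-0.017 and -0.084), and the black interval excludes 0 for Lgr6 only (-0.80 to -0.0034).

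The rest of the pathway was examined through 85 other genes in 8 groups, of which 79 were tested. In the 6 specimens 38 had a positive and 41 a negative log2 fold change, with a median of -0.0049, and none was called. Among them 5 had an unadjusted p under 0.05 in edgeR: Sfrp1 and Sfrp5 higher, and Fzd2, Tcf7l1 and Myc lower in TO. Of all genes tested, 5.14% had such a p and 49.3% had a log2 fold change above 0. The counts of each group below are to be read beside these shares. Wnt1, Wnt8a, Wnt8b, Wnt10a, Dkk1 and Dkk4 did not pass the filter.

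Secreted antagonists are proteins that keep ligands or co-receptors from signalling. Of these, 10 of 12 tested had a positive log2 fold change, with a median of 0.44, beside 49.3% of all genes. An unadjusted p under 0.05 in edgeR was found for 2, both higher in TO, as for 3.07% of all genes. In the 7 deep libraries 8 of 12 had a positive log2 fold change, beside 48% of all genes. Sfrp1, which binds Wnt ligands outside the cell, was at 36.8, 29.1, 85.4 and 78.6 CPM in control 1 to 4 and at 75.5, 71.9, 114 and 97.1 CPM in TO 1 to 4. Its log2 fold change was 0.97 (SE 0.34, edgeR unadjusted p = 0.019, adjusted p = 0.907). With number as a block in the 6 specimens it was 0.81 (SE 0.18, adjusted p = 0.023), and it was then the 1 pathway gene called, among 219 genes called in all. That fit rests on numbers 2 and 4, which alone have a lung in both groups. In log2 CPM of Sfrp1 the TO library exceeded its control by 1.30 for number 2 and by 0.30 for number 4. These 2 differences lie far apart, so the SE and adjusted p of that fit do not measure the spread between lungs. Controls 1 and 2 were low in Sfrp1, and also in heart muscle markers (Myh6, Myl7, Nppa, Actc1, Tnnt2 and Myl4), summed at 663 and 415 CPM against 2276 to 5195 CPM in the other libraries, whose part in the result was not tested. Sfrp5, a related antagonist at 0.175 to 1.94 CPM in the deep libraries, had a log2 fold change of 1.96 (SE 0.63, edgeR unadjusted p = 0.012). Over numbers 2 to 4 with the block, neither Sfrp1 nor Sfrp5 was called. The mean difference of same-numbered libraries there, in log2 CPM, was 0.68 (SD 0.55) for Sfrp1 and 1.11 (SD 0.78) for Sfrp5.

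Of the receptors and co-receptors, 16 of 16 were tested, 6 with a positive and 10 with a negative log2 fold change. Fzd2, a Frizzled receptor, had a log2 fold change of -0.27 (SE 0.11, edgeR unadjusted p = 0.043), and it was -0.12 over numbers 2 to 4 with the block. Ptk7 and Lrp6, those with most reads of the group, stood at -0.034 and 0.082 on that scale. In the pair that lets ligands leave the cell, the carrier Wls and the acyltransferase Porcn had -0.10 and -0.056. Among other ligands 7 of 10 tested had a positive value, with Wnt3a at 0.49 and Wnt7a at -0.45, those with most reads.

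The R-spondin arm, which sets how many receptors stay at the surface, had 5 of 7 positive values and none with an unadjusted p under 0.05. Znrf3 and Rnf43, the ligases that remove receptors, were at log2 fold changes of 0.059 and -0.31. Rnf43 was lowest of the deep libraries in control 3, at 22.8 CPM. Within the cell, Ctnnb1, the gene of beta-catenin, had 0.024 and the kinase gene Csnk1a1 had -0.057, and 5 of 11 core genes were positive. Among nuclear factors 4 of 11 were positive, and Tcf7l1 had -0.37 (SE 0.12, edgeR unadjusted p = 0.011), with -0.078 over numbers 2 to 4 with the block. The coactivator Bcl9l and the corepressor Tle3 had -0.050 and 0.096.

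Of 10 further targets 9 had a negative log2 fold change in the 6 specimens and 6 in the 7 deep libraries. Over all genes, 49.3% and 48% had a log2 fold change above 0 in these sets. Myc, the growth regulator, was at 28.2, 20.1, 9.53 and 22.6 CPM in control 1 to 4 and at 41.2, 19.3, 14.4 and 17.6 CPM in TO 1 to 4. Its log2 fold change was -0.47 (SE 0.19, edgeR unadjusted p = 0.034) in the 6 specimens and 0.052 over numbers 2 to 4 with the block. Control 3 and TO 3 were its lowest libraries, as they were for Wnt2 and Wnt7b. Id2 and Tnfrsf19, those with most reads, had -0.24 and -0.050.

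**Figure D5:**
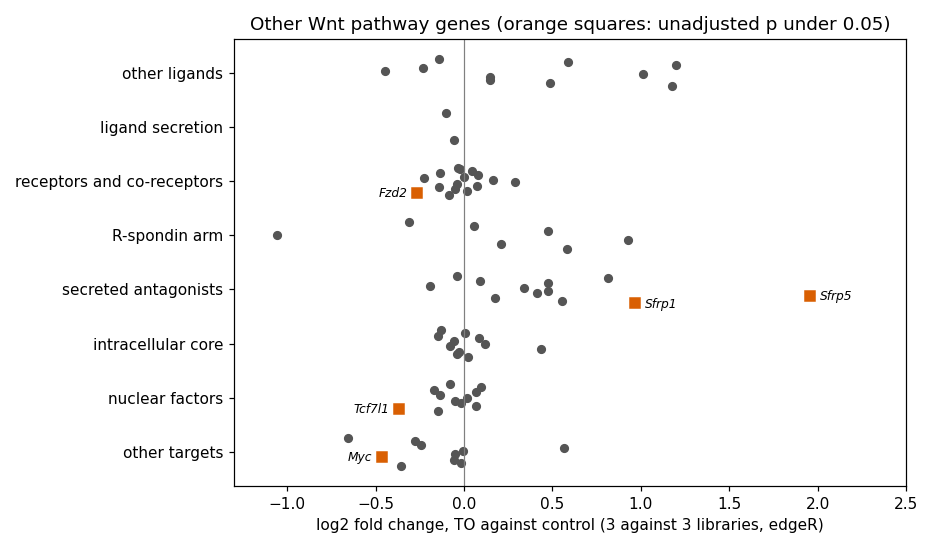
Log2 fold change of TO against control in the 6 specimens for the 79 tested genes of the other Wnt pathway groups, 1 point a gene and 1 row a group. Orange squares mark the 5 genes with an unadjusted p under 0.05, from Tcf7l1 (-0.37) and Myc (-0.47) to Sfrp5 (1.96), and no gene passed the adjusted threshold.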

How the data were processed

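Paired reads of whole lung RNA were aligned to GRCm38 with STAR by the authors, whose deposited files hold raw, unnormalized counts for every gene. The version of STAR and the annotation are not given in the sources used here. Counts that ignore strand were used, with symbols and exon lengths of GENCODE M21 (55144 of 55385 IDs matched). Genes counted at 5 reads or higher in no fewer than 3 of the 6 specimens were tested in R 4.3.3 with edgeR 4.0.16 (quasi-likelihood, TMM, Benjamini-Hochberg over all genes, threshold 0.1), after a test on simulated data. CPM used TMM factors of all 8 libraries, and log2 CPM was taken with prior count 2. Same-numbered libraries deviated together (correlations 0.123, 0.422, 0.417 and 0.454 over 9282 genes, in order of number), so numbers were taken to pair samples. For number 1 this is weak: control 1 with TO 4 (0.264) and control 4 with TO 1 (0.274), which share its specimen code digits, correlated more. DESeq2 1.42.0, limma-voom (limma 3.58.1), other scaling, filters, blocks and library sets were alternatives. Genes named are the members, pathway genes with an unadjusted p under 0.05, the 2 with most reads in each group and the 3 nearest Axin2. The members and lists were chosen with earlier results of these data known.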

Additional observations from a re-analysis of the deposited data

Results flagged for a closer look

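Within each group the highest and lowest of 4 libraries were checked by the gap to the nearest library as a share of the range (Dixon's 95% limit) for the 10 genes, 20 checks in all, of which chance passes about 1 in 20. Wnt2 was set apart low in control 3, with a gap of 0.913 of the range of control libraries, and in TO 3, with 0.915 of the range of TO libraries. Lef1 was set apart high in TO 1, with 0.948 of the range of TO libraries, a value that rests on 16 read pairs. The other 17 checks did not pass the limit.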

How the results depend on the processing

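Of 10 genes, none was called in any of the settings tried, and 193 alternative log2 fold changes kept their direction while 17 turned. Many settings refit the same 6 specimens, and some values that kept their direction were very small, such as -0.00033 for Wnt11 without TO 2. The count is therefore no measure of how firm a direction is. Calls over all genes went from 0 to 44 with DESeq2, 40 with no filter beyond 1 read, 219 with the replicate block in the 6 specimens (1 pathway gene, Sfrp1), and 3 with the replicate block in all 8 libraries and over numbers 2 to 4, the last chosen after seeing the data. Leaving out each library in turn gave 0 to 144 genes and 0 to 2 pathway genes, with 52 genes without control 4 and 144 without TO 4. Without control 4, Sfrp1 (1.52) and Sfrp2 (1.29, named after its values were seen) were called (adjusted p = 0.082 each). Directions that turned were those of small values. Wnt11 was 0.15 in all 8 libraries, 0.12 with the replicate block and 0.055 with the specimen code block there. Axin2 was -0.012 in all 8 libraries, -0.061 and -0.060 with the replicate block in 6 and 8 libraries, -0.049 and -0.041 with the code block, and -0.0075 without TO 3 to 0.29 without TO 4 with 1 library left out. Nkd1 was -0.049 in all 8 and -0.0062 in 7 libraries, -0.071 and -0.075 with the replicate block in 6 and 8 libraries, -0.080 with the code block in both, and -0.087 and -0.096 over numbers 2 to 4 without and with the replicate block. The replicate block changed no call among the 10 genes. The cause of these changes was not tested.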
